A study of Homo sapiens with 9 samples.

Results

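The insulin-like growth factor (IGF) and insulin axis was examined over 10 genes, taken by name from the 19918 gene symbols listed in every count table. They comprise 3 receptors (*IGF1R*, *IGF2R* and *INSR*), 2 receptor adaptors (*IRS1* and *IRS2*), 3 IGF binding proteins (*IGFBP2*, *IGFBP3* and *IGFBP5*) and 2 forkhead transcription factors (*FOXO1* and *FOXO3*). All 10 were expressed highly enough to be among the 12810 genes tested. The samples were VCaP cells, an established prostate cancer epithelial cell line, in which *IGF1R-AS1* was targeted. This long non-coding RNA is antisense to *IGF1R*. The groups si025 and si033, both with the genotype given as IGF1R-AS1 knockdown, each received an siRNA designed against exon 1 of that transcript. The control group, with the genotype given as WT, received a control siRNA. All 3 groups underwent reverse transfection with RNAiMAX and 100 pmol of siRNA, were harvested 72 h later, and gave 1.3 µg of total RNA per library. Each group held 3 libraries, with totals between 11649811 and 28492259 counts.

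*IGF1R-AS1* itself was not analysed here. The study measured its knockdown in VCaP cells by qPCR, a measurement outside the count tables, so how far it was depleted in these libraries is not given. The study calls the 3 libraries of a group biological replicates, and the labels number them without saying whether they came from separate cultures, so *p* values measure the spread between these libraries. In bulk RNA, a change in the number of cells that express a gene and a change in its level per cell cannot be told apart. All 8 prostate luminal markers reported here, among them *KLK2*, *TMPRSS2* and *HOXB13*, were at 1 CPM or more in control cells. *KRT5*, *DES*, *CD3E* and *CDH5*, which mark basal, muscle, T and endothelial cells, had no count in any library. Other basal, stromal and neuroendocrine markers were counted, with control means of 3.81 (*KRT14*), 3.17 (*ACTA2*), 1.73 (*COL1A1*), 28.8 (*SYP*) and 12.8 (*INSM1*) CPM. By the edgeR quasi-likelihood test, *COL1A1* was higher with si025 (log2 fold change 1.07, adjusted *p* = 0.000117). *KRT14* was lower with si033 (-1.30, adjusted *p* = 2.81e-05). These genes showed no other change from control at an adjusted *p* under 0.05. The 5 immune and endothelial markers summed to at most 0.524 CPM in any library, the 3 basal markers to 1.24 to 4.98 CPM, the 5 stromal markers to 3.90 to 7.59 CPM and the 3 neuroendocrine markers to 39.7 to 44.3 CPM. The summed level of these 8 luminal markers was 4256 to 4338 CPM in control libraries, 6207 to 6570 CPM with si025 and 3816 to 3994 CPM with si033. This sum thus differed between the groups, and its largest part was *KLK2*, with group means of 1938 (control), 3502 (si025) and 1621 (si033) CPM. The other markers did not all follow the sum. In the si033 means, *FOXA1* and *KRT18* were also below control, and *TMPRSS2* and *KRT8* changed little. *HOXB13* (575 against 480 CPM), *EPCAM* (482 against 432 CPM) and *KLK3* (19.3 against 13.4 CPM) were above control. The part of these markers in the results below was not tested.

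IGF1R and INSR are related receptor tyrosine kinases at the cell surface that phosphorylate the adaptors IRS1 and IRS2, which in turn recruit phosphoinositide 3-kinase (PI3K) and lead to activation of the kinase AKT. AKT phosphorylates FOXO transcription factors and keeps them out of the nucleus, and genes of the axis itself, such as *INSR* and *IRS2*, are known FOXO targets. IGF2R lacks kinase activity and clears IGF2 from the cell surface, while the secreted binding proteins hold IGFs in the extracellular fluid and modulate their access to receptors. In the prostate, this axis is known for supporting the growth and survival of epithelial cells.

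The siRNA sequences listed by the study are shown first, because the target sites lie inside *IGF1R* and because the seed of an siRNA guide strand can pair with other transcripts. Capitals mark bases 12 to 18 of the listed strand, which face bases 2 to 8 (the seed) of the guide strand. The sources used here do not say which of the 2 targeting sequences is si025 and which is si033. For the control sequence, it is assumed that the listed strand is also the one opposite to the guide.
siRNA negative control: uagcgacuaaaCACAUCAa
IGF1R-AS1-siRNA-1#: agaaagcacugAAGACCUauu
IGF1R-AS1-siRNA-2#: ccguauugcucAGUGGAAauu

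The first 19 bases of siRNA-1# matched the genome (hg38) at chr15:98843733-98843751 on the minus strand, and those of siRNA-2# at chr15:98843694-98843712 on the same strand. *IGF1R* lies on the plus strand of chromosome 15, from 98648539 to 98964530. Both sites fall in intron 2 of its canonical transcript of 21 exons in GENCODE version 44, which spans 98708108 to 98891324. The counts took only exonic reads on the strand of the gene, so reads from the antisense transcript do not enter the values of *IGF1R*.

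The seed-matching 7-base words were searched in the 3′ UTRs of the members, in the sense orientation. The word AAGACCT of siRNA-1# was present in the 3′ UTRs of 4 members (*IGF2R*, *INSR*, *IRS1* with 3 copies, and *FOXO3*) and in 11.4% of the 12086 tested genes with a 3′ UTR. AGTGGAA of siRNA-2# was present in 3 members (*IGF2R* with 3 copies, *IRS1* and *FOXO1*) and in 16.0% of tested genes. CACATCA of the control siRNA was present in 4 members (*IGF1R*, *IGF2R*, *INSR* and *FOXO1*) and in 11.7% of tested genes. None of the 3 words occurred in the 3′ UTRs of *IRS2*, *IGFBP2*, *IGFBP3* or *IGFBP5*. The 6 members that held a word have 3′ UTRs of 3382 to 7088 bases, against a median of 1374 bases over the tested genes, and longer sequences hold a given word more often, so the shares of members and of all genes are not comparable. A 29-base window around a single copy is shown for each of these 6 members, with the word in capitals. For siRNA-1#, the windows lie at chr6:108679832-108679860 (*FOXO3*, plus strand), chr19:7115345-7115373 (*INSR*, minus strand) and chr2:226732875-226732903 (*IRS1*, minus strand). For siRNA-2#, they lie at chr6:160110877-160110905 (*IGF2R*, plus strand) and chr13:40557567-40557595 (*FOXO1*, minus strand), and for the control siRNA at chr15:98961631-98961659 (*IGF1R*, plus strand). As described below, *FOXO3*, *INSR* and *IGF2R* were called lower, and *IRS1*, *FOXO1* and *IGF1R* higher, with at least 1 of the siRNAs. *IGF1R* holds only the word of the control siRNA, and *IGF2R*, *INSR* and *FOXO1* hold that word as well as a targeting word. The directions are therefore not comparable between these genes. A word is a match of letters only, and its part in the levels was not tested.
FOXO3 with the word of siRNA-1#: caaactgacacAAGACCTacagagaaaac
INSR with the word of siRNA-1#: aaaccgtgaaaAAGACCTtacacaccacc
IRS1 with a word of siRNA-1#: cactgtgaattAAGACCTtggcggggaga
IGF2R with a word of siRNA-2#: cagaagcagagAGTGGAAtggtggttacc
FOXO1 with the word of siRNA-2#: gtggaagtttaAGTGGAAggagggaattt
IGF1R with the word of the control siRNA: aaccactgaggCACATCAtggaattgatg

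Levels were first ordered per length, as normalised counts per kilobase of exon (FPKM). In control cells, *IGFBP2* was the most abundant member at 62.8 ± 4.14 FPKM (SD, n = 3 here and throughout), followed by *IGF1R* at 31.6 ± 0.142 FPKM, *IRS2* at 22.3 ± 1.05 FPKM and *IGFBP3* at 16.5 ± 1.57 FPKM. *FOXO3* (10.8 FPKM), *IGF2R* (8.57 FPKM), *INSR* (2.81 FPKM) and *IRS1* (2.06 FPKM) followed. *IGFBP5* (0.244 FPKM) and *FOXO1* (0.158 FPKM) were the least abundant. The control libraries of each gene stood apart from those of its neighbour in this order.

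The order of levels differed with the siRNAs. With si025, *IGFBP3* reached second place at 42.7 ± 2.20 FPKM, and the libraries of *IRS2* and *IGF1R*, of *IGF2R* and *FOXO3*, of *INSR* and *IRS1* and of *IGFBP5* and *FOXO1* overlapped. With si033, *IGFBP3* was the most abundant member at 79.0 ± 5.92 FPKM, above *IGFBP2* at 51.5 ± 3.10 FPKM and *IRS2* at 45.1 ± 1.48 FPKM. Only the libraries of *IRS1* and *INSR* overlapped among neighbours in the si033 group.

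Next, each member was compared between the groups by counts scaled to a common library size (CPM), a level per library that is not corrected for gene length. Log2 fold changes were tested by the edgeR quasi-likelihood test with Benjamini-Hochberg adjustment over all 12810 genes, and a gene is referred to as called at an adjusted *p* under 0.05. With si025, 4 of 10 members were called higher and 4 lower, where 32.9% of all tested genes were called higher and 28.8% lower. With si033, 5 were called higher and 2 lower, where 26.9% of all tested genes were called higher and 27.8% lower. Calls were thus widespread in these libraries, and a call alone does not set a member apart from other genes. Of the members, 4 with each siRNA were called higher and changed by at least 1.5-fold, where 13.4% of all genes with si025 and 8.56% with si033 met that rule. The members were chosen with earlier results of these data known, so these shares are no test of enrichment. The median log2 fold change of the 10 members was 0.01 with si025 and 0.23 with si033, and over all tested genes it was 0.02 and 0.00. The 2 comparisons share their control libraries.

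**Figure D1:**
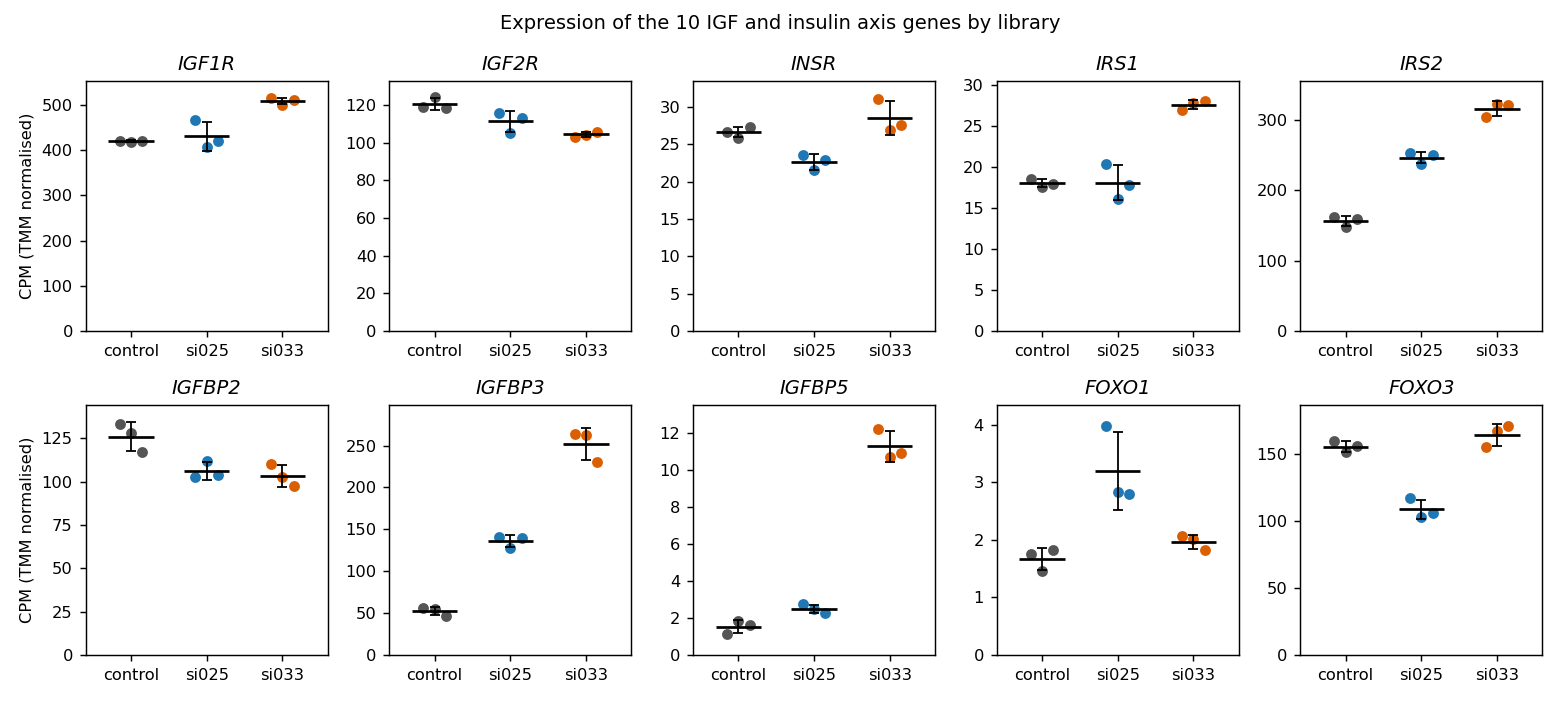
Level of each member in each library, in TMM-normalised CPM on a linear axis from 0, for control, si025 and si033. Points are libraries, horizontal bars group means and error bars SD over 3 libraries. *IGFBP3* rises from 46.8 to 55.7 CPM in control to 230 to 263 CPM with si033, whereas *FOXO3* is lower only in the si025 libraries, at 103 to 117 CPM.

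The binding proteins moved in opposite directions, with *IGFBP3* and *IGFBP5* higher and *IGFBP2* lower with both siRNAs. *IGFBP3*, the main carrier of IGFs in the circulation, lies on chromosome 7 (45912245 to 45921272, minus strand, hg38). It stood at 55.7, 55.2 and 46.8 CPM in the control libraries, at 140, 128 and 139 CPM with si025, and at 263, 262 and 230 CPM with si033. The 3 groups did not overlap. Its level was 2.61-fold that of control for si025 (log2 fold change 1.39, SE 0.07, adjusted *p* = 4.99e-14) and 4.83-fold with si033 (2.27, SE 0.07, adjusted *p* = 5.53e-18). The si025 and si033 groups also differed from each other, by -0.89 on the log2 scale (SE 0.06, adjusted *p* = 1.18e-11).

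*IGFBP5* encodes a binding protein that also attaches to the extracellular matrix and is found on chromosome 2 (216672105 to 216695549, minus strand). It was low in control cells, at 1.13, 1.81 and 1.62 CPM, and was counted 13 to 42 times per library. It was at 2.73, 2.48 and 2.25 CPM with si025 and at 12.2, 10.7 and 10.9 CPM with si033, without overlap between any groups. Against control it changed by 0.65 on the log2 scale with si025 (SE 0.20, adjusted *p* = 0.00646) and 2.84 with si033 (SE 0.16, adjusted *p* = 6.93e-13), a 7.17-fold difference from control. The contrast between the siRNAs was the widest of any member, at -2.19 (SE 0.14, adjusted *p* = 6.33e-12).

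*IGFBP2* (chromosome 2, 216632828 to 216664436, plus strand) encodes a binding protein made by prostate epithelium, and its gene ends 7668 bases from the end of *IGFBP5* on the opposite strand. In contrast to its neighbour, *IGFBP2* fell. The control libraries held 133, 128 and 117 CPM, the si025 libraries 103, 112 and 104 CPM, and the si033 libraries 110, 103 and 97.6 CPM. All 6 knockdown libraries lay below all control libraries, while the 2 siRNAs overlapped. The log2 fold changes were -0.24 with si025 (SE 0.06, adjusted *p* = 0.000784) and -0.29 with si033 (SE 0.06, adjusted *p* = 0.000169), and no difference between the siRNAs was called (0.05, SE 0.06, adjusted *p* = 0.482).

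The makeup of the binding protein transcripts therefore shifted. Across *IGFBP1* to *IGFBP6*, *IGFBP3* made up 20.5% ± 0.640 of the summed FPKM in control cells, 43.8% ± 2.36 with si025 and 59.3% ± 1.12 with si033. *IGFBP2* made up 78.2% ± 0.568, 54.4% ± 2.51 and 38.6% ± 0.931, respectively. The sum itself was 80.3 ± 5.67 FPKM in control cells, 97.3 ± 0.282 FPKM with si025 and 133 ± 8.67 FPKM with si033. The ratio of *IGFBP3* to *IGFBP2* within a library was 0.263 ± 0.0101, 0.808 ± 0.0786 and 1.53 ± 0.0667. In all of these measures the libraries of the 3 groups were separate, and the exact two-sided permutation test gave *p* = 0.1 for each pair of groups, the smallest value that 3 against 3 libraries allow.

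**Figure D2:**
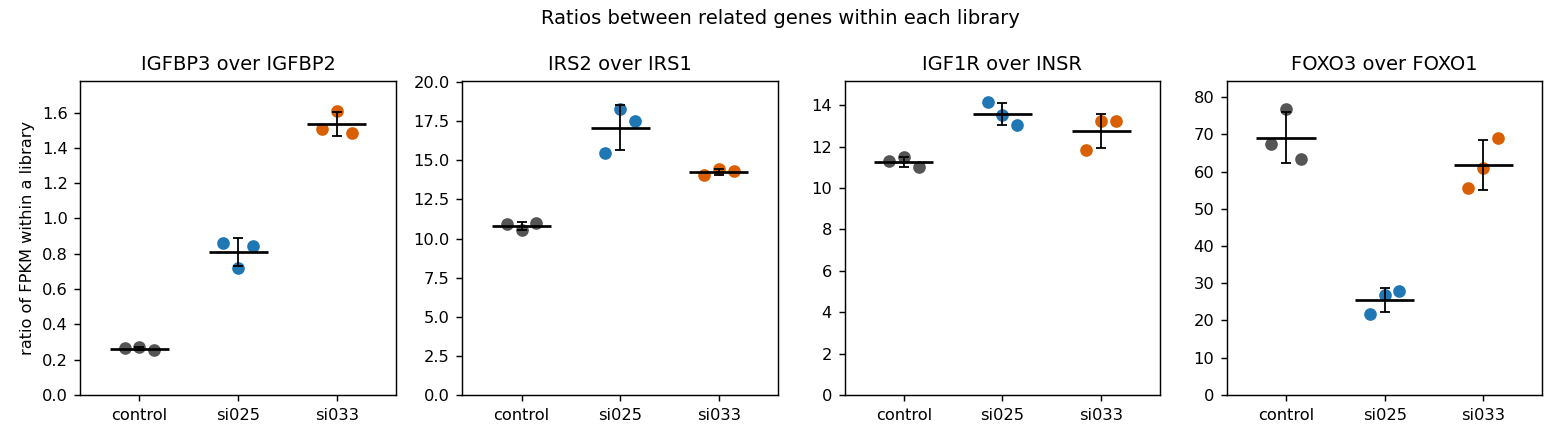
Ratio of the FPKM of related members within each library (linear axes from 0), for control, si025 and si033. Points are libraries, horizontal bars means and error bars SD over 3 libraries. The *IGFBP3* to *IGFBP2* ratio is separate in all groups, with means of 0.263, 0.808 and 1.53, whereas *FOXO3* over *FOXO1* is low with si025 alone, at a mean of 25.5.

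Each receptor showed a different pattern, and their changes were smaller than those of *IGFBP3* and *IGFBP5*. *IGF1R*, the receptor gene that hosts the antisense transcript, was at 420, 417 and 420 CPM in control cells. It was at 466, 406 and 419 CPM with si025 and at 514, 499 and 509 CPM with si033. The si025 libraries spread around the control libraries, and all si033 libraries were above both. Relative to control, log2 fold changes were 0.04 for si025 (SE 0.05, adjusted *p* = 0.509) and 0.28 for si033 (SE 0.05, adjusted *p* = 1.90e-05), which is 1.21-fold. The siRNAs differed from each other by -0.24 (SE 0.05, adjusted *p* = 7.96e-05). With offsets for gene length and GC content, the si025 value turned to -0.07 and was called lower (adjusted *p* = 0.0265), and without si025 replicate 1 it was -0.02 (adjusted *p* = 0.644).

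*IGF2R* (chromosome 6, 159969099 to 160111504, plus strand) fell slightly with both siRNAs. Control libraries held 119, 124 and 118 CPM, against 115, 105 and 113 CPM for si025 and 103, 104 and 106 CPM for si033. Neither knockdown group overlapped control, whereas the siRNA groups overlapped each other. For si025 this amounted to a log2 fold change of -0.12 (SE 0.05, adjusted *p* = 0.0374) and for si033 to -0.21 (SE 0.05, adjusted *p* = 0.000931), and the difference between them was not called (0.09, SE 0.05, adjusted *p* = 0.113). The si025 call was lost without si025 replicate 2 (adjusted *p* = 0.177), si025 replicate 3 (0.0525), control replicate 1 (0.0569) or control replicate 2 (0.127), with upper quartile normalisation (0.0839), and with scaling by library size only (0.240).

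*INSR* (chromosome 19, 7112255 to 7294405, minus strand), the insulin receptor, fell with si025 only. It was at 26.6, 25.9 and 27.2 CPM in control cells, at 23.5, 21.5 and 22.9 CPM with si025, and at 31.1, 26.9 and 27.5 CPM with si033. All si025 libraries were below the others, and the si033 and control libraries overlapped. Its log2 fold change was -0.24 for si025 (SE 0.07, adjusted *p* = 0.00425) and 0.09 for si033 (SE 0.07, adjusted *p* = 0.283). Between the siRNAs it differed by -0.33 (SE 0.07, adjusted *p* = 0.000229). The FPKM ratio of *IGF1R* to *INSR* was 11.3 ± 0.247 in control cells, 13.6 ± 0.549 with si025 and 12.8 ± 0.827 with si033, and both knockdown groups were separate from control (exact two-sided permutation test, *p* = 0.1 each).

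To place *IGF1R* among all genes, the 3 tested genes with the most similar pattern over the 9 libraries were identified by the root mean square (RMS) difference of log2 CPM, centred on control. They were *KIAA0100* (RMS 0.0287), *FOXJ2* (RMS 0.0297) and *MYH10*, a non-muscle myosin heavy chain (RMS 0.0324). Their log2 fold changes were 0.07, 0.04 and 0.03 with si025 and 0.29, 0.27 and 0.27 with si033. The closest other member was *INSR*, which ranked 2692 by this measure.

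Both adaptors were higher with si033, and *IRS2* with both siRNAs. *IRS2* (chromosome 13, 109753837 to 109786567, minus strand) links both receptors to PI3K. It was at 162, 148 and 159 CPM in control cells, at 252, 237 and 250 CPM with si025 and at 304, 323 and 321 CPM with si033, and the 3 groups were separate. This corresponds to 1.58-fold of control for si025 (log2 fold change 0.66, SE 0.05, adjusted *p* = 2.68e-11) and 2.02-fold with si033 (1.02, SE 0.05, adjusted *p* = 1.79e-14). The siRNAs differed by -0.36 (SE 0.05, adjusted *p* = 3.39e-07).

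*IRS1* (chromosome 2, 226731317 to 226798790, minus strand), the related adaptor, responded with si033 only. The control libraries held 18.5, 17.5 and 18 CPM, the si025 libraries 20.3, 16.2 and 17.9 CPM, and the si033 libraries 27.0, 27.9 and 28.0 CPM. The si025 libraries fell on both sides of control, and the si033 libraries were above all others. On the log2 scale, the change was -0.01 for si025 (SE 0.08, adjusted *p* = 0.950) and 0.62 with si033 (SE 0.07, adjusted *p* = 2.46e-07), or 1.54-fold. The siRNAs differed by -0.63 (SE 0.07, adjusted *p* = 1.15e-07).

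Relative to their receptors, the summed adaptor transcripts were more abundant in both knockdown groups. Most of that sum is *IRS2*, at 22.3 FPKM against 2.06 FPKM for *IRS1* in control cells. With si025, no change of *IRS1* was called. The summed FPKM of *IRS1* and *IRS2* over that of *IGF1R* and *INSR* was 0.708 ± 0.0280 in control cells, 1.07 ± 0.0474 with si025 and 1.17 ± 0.0566 with si033. Both knockdown groups were separate from control and overlapped each other (exact two-sided permutation test, *p* = 0.1 against control and 0.2 between the siRNAs). The *IRS2* to *IRS1* ratio was 10.8 ± 0.256, 17.1 ± 1.44 and 14.3 ± 0.214, and the 3 groups were separate from each other (*p* = 0.1 in each exact permutation test).

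The forkhead factors changed with si025, in opposite directions. *FOXO3* (chromosome 6, 108559823 to 108684769, plus strand), the more abundant of the pair, was at 159, 151 and 156 CPM in control cells. It was at 117, 103 and 106 CPM with si025 and at 155, 167 and 171 CPM with si033. Only the si025 libraries were apart from control. Compared with control, the log2 fold change was -0.52 for si025 (SE 0.05, adjusted *p* = 8.92e-09), which is 0.696 of the control level, and 0.08 with si033 (SE 0.05, adjusted *p* = 0.175). The siRNAs differed by -0.61 (SE 0.05, adjusted *p* = 7.10e-10). The si033 value became a call with scaling by library size only (0.14, adjusted *p* = 0.0295) and without si033 replicate 1 (0.13, adjusted *p* = 0.0471).

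*FOXO1* (chromosome 13, 40555664 to 40666597, minus strand) was near the lower end of what was tested, with 20 to 63 counts per library. It was at 1.75, 1.45 and 1.82 CPM in control cells, at 3.97, 2.83 and 2.79 CPM with si025 and at 2.06, 2.01 and 1.83 CPM with si033. The si025 libraries were above all others. The si033 libraries lay just above the control libraries, and this difference was not called. Its log2 fold change was 0.88 for si025 (SE 0.20, adjusted *p* = 0.000558), or 1.84-fold, and 0.19 with si033 (SE 0.22, adjusted *p* = 0.484). It was higher with si025 than with si033 by 0.68 on the log2 scale (SE 0.19, adjusted *p* = 0.00388). The FPKM ratio of *FOXO3* to *FOXO1* was 69.1 ± 6.93 in control cells, 25.5 ± 3.34 with si025 and 61.8 ± 6.73 with si033. The si025 libraries were separate from both other groups, and control and si033 overlapped (exact two-sided permutation test, *p* = 0.1, 0.1 and 0.3).

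**Figure D3:**
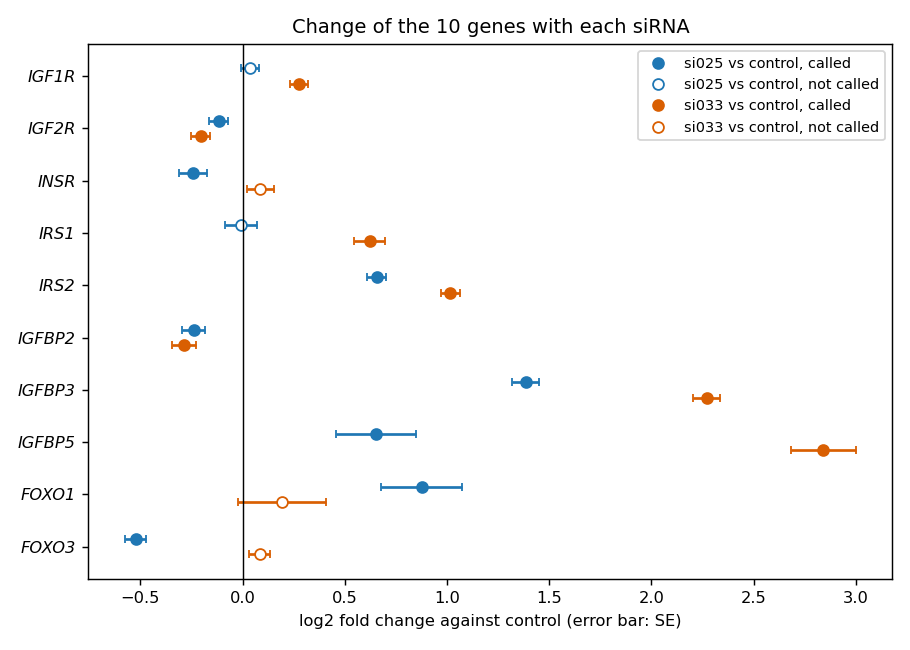
Log2 fold change of each member against control with si025 and si033, with SE as error bars; filled points were called by the edgeR quasi-likelihood test and open points were not. *IGFBP3* (1.39 and 2.27), *IGFBP5* (0.65 and 2.84) and *IRS2* (0.66 and 1.02) lie right of 0 with both siRNAs, and *FOXO3* (-0.52 and 0.08) and *FOXO1* (0.88 and 0.19) are set apart by si025.

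In the direct comparison of si025 with si033, 8 members were called, 1 higher (*FOXO1*) and 7 lower, where 31.2% of all tested genes were called higher and 29.7% lower. The 7 that were lower with si025 were *IGFBP5*, *IGFBP3*, *IRS1*, *FOXO3*, *IRS2*, *INSR* and *IGF1R*. The 2 members without a call, *IGF2R* and *IGFBP2*, were those that fell with both siRNAs. The median log2 difference of the members was -0.34, and over all tested genes it was -0.00.

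**Figure D4:**
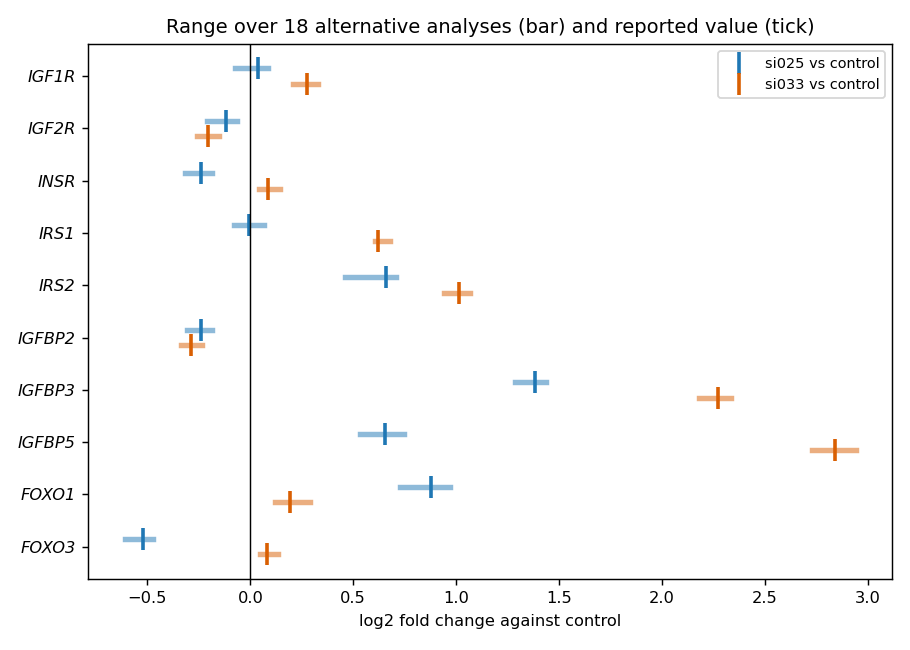
Range of the log2 fold change of each member over the alternative analyses (bars) beside the reported value (ticks), for si025 and si033 against control. The bars of *IGF1R* and *IRS1* with si025 cross 0, reaching -0.07 and 0.07, whereas those of *IGFBP3* stay between 1.29 and 1.44 with si025 and between 2.18 and 2.34 with si033.

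Promoter sequences from RefSeq (GRCh38.p14, 250 bases before to 50 bases after the start) were available for all 10 members and for 10454 of the 12810 tested genes. They were searched on both strands for the E-box CACGTG, the insulin response word CAAAACA and the forkhead word GTAAACA. The last 2 words share their final letters, but no member holds both. CACGTG was found in 2 members, *IGF2R* and *IRS1*, and in 10.03% of promoters. *IGF2R* held it 3 times, at 132, 74 and 28 bases before the start, and 21 tested genes (0.201%) had 3 or more copies. The *IGF2R* promoter is 78.7% G and C, and these shares take no account of base composition. The windows shown around the *IGF2R* copies lie at chr6:159968939-159968966, chr6:159968997-159969024 and chr6:159969043-159969070 on the plus strand. *IGF2R* was called lower with both siRNAs, though with si025 not under every alternative. *IRS1*, whose copy 35 bases after the start is not shown, was called higher with si033, so the members with this word share no direction. CAAAACA was found in *IRS2* alone among the members and in 3.02% of promoters. Its copy is on the minus strand relative to the gene, 40 bases before the start (shown in the window chr13:109786606-109786634, minus strand), so that capitals show its reverse complement. GTAAACA was found in 2.30% of promoters and in no member. These are matches of letters, not evidence of binding.
IGF2R, first copy: cgcgctgcgctCACGTGacccgggcctg
IGF2R, second copy: aacaagggagtCACGTGagcggggggcg
IGF2R, copy nearest the start: cgggcggctgtCACGTGacgcggttccg
IRS2: gagtcacatgtTGTTTTGctcttcttagt

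The remaining genes of the pathway were examined in 6 lists with 89 genes, of which 74 were tested. With si025, 27 were called higher and 20 lower, with a median log2 fold change of 0.08. With si033, 32 were called higher and 23 lower, with a median of 0.12. These counts cover 63.5% and 74.3% of the tested list genes, where 61.7% and 54.8% of all tested genes were called. The counts, shares and medians include genes that did not pass the expression filter by their control libraries alone, such as *SOCS1*, *SOCS3* and *PIK3CD*. For such genes the filter favoured calls higher, and the shares are no test of enrichment.

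Ligand transcripts were close to absent. *INS* had no count in any library, *IGF1* had at most 2 and *IGF2* at most 3, and the *INS* and *IGF2* genes overlap an annotated read-through gene, so that their counts are uncertain. Of 12 ligand and binding protein genes, 3 were tested. The protease genes *PAPPA* and *PAPPA2* of this list were not, with at most 1 and 13 counts in any library. The stanniocalcin gene *STC1*, whose product inhibits the protease that cleaves IGF binding proteins, rose from 11.95 CPM in control cells, by 0.75 on the log2 scale with si025 (20.5 CPM, adjusted *p* = 1.58e-08) and by 1.16 with si033 (27.1 CPM, adjusted *p* = 8.01e-12). The related *STC2* fell with si025 (-0.19, adjusted *p* = 0.00851) and rose with si033 (0.21, adjusted *p* = 0.00332). *IGFBP4* was the only other tested gene of this list, at 0.71 with si025 (adjusted *p* = 0.00693) and 0.18 with si033 (adjusted *p* = 0.528). It was low in control cells, at a mean of 1.40 CPM and 18 to 34 counts per library.

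Of 14 tested adaptors and phosphatases, 6 were called higher and 5 lower with si025, and 8 higher and 2 lower with si033. *GRB2*, which couples receptors to RAS, fell from 111 to 57.4 CPM with si025 (-0.95, adjusted *p* = 1.43e-13) and was called higher with si033, at 120 CPM (0.12, adjusted *p* = 0.0399). *GRB14*, an adaptor that inhibits the insulin receptor, fell with both siRNAs, by 0.45 with si025 (adjusted *p* = 0.000839) and by 0.56 with si033 (adjusted *p* = 0.000128) on the log2 scale. The suppressors of cytokine signalling *SOCS1* and *SOCS3*, which promote degradation of IRS proteins, were at or below 1.49 CPM in mean. *SOCS1* was higher with both siRNAs (0.70 and 1.02, adjusted *p* = 0.0404 and 0.00396), and *SOCS3* was called with si025 (1.20, adjusted *p* = 0.0045) and not with si033 (0.40, adjusted *p* = 0.422). In control cells, *SOCS1* was counted 11 to 13 times per library and *SOCS3* 5 to 9 times. Neither passed the expression filter by its control libraries alone. The filter thus favoured calls in this direction, and no weight is put on them. The counts of this list include both genes.

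Within the PI3K and AKT list of 17 genes, 5 were called higher and 4 lower with si025, and 8 higher and 6 lower with si033. *PIK3R1*, the main regulatory subunit, fell from 124 to 85.3 CPM with si025 (-0.55, adjusted *p* = 1.91e-09) and rose to 156 CPM with si033 (0.33, adjusted *p* = 4.17e-06). The catalytic subunit gene *PIK3CD* was higher with both (2.31 and 1.49, adjusted *p* = 9.66e-06 and 0.00454), from a control level of 0.232 CPM. It was counted 2 to 6 times per control library and passed the expression filter only through knockdown libraries, where it is high. The filter thus favoured calls in this direction, and no weight is put on them. The counts of this list include *PIK3CD*. *INPP4B*, a lipid phosphatase that opposes PI3K, fell with si033 from 4.27 to 2.09 CPM (-1.03, adjusted *p* = 3.91e-05), and its level of 5.30 CPM with si025 was not called (0.33, adjusted *p* = 0.0654).

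Of 15 mTOR complex and effector genes, 6 were called higher and 4 lower with si025, and 5 higher and 7 lower with si033. The S6 kinase genes *RPS6KB1* (0.75 and 0.25, adjusted *p* = 4.66e-11 and 0.00073) and *RPS6KB2* (0.24 and 0.39, adjusted *p* = 0.000273 and 8.26e-07) rose with si025 and si033. *EIF4EBP1*, a repressor of cap-dependent translation, fell with both (-0.39 and -0.24, adjusted *p* = 1.59e-05 and 0.00259). *MAPKAP1*, a subunit of mTOR complex 2, was lower with si033 (-0.31, adjusted *p* = 4.67e-06) and was not called with si025 (-0.06, adjusted *p* = 0.230).

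Among 6 tested FOXO relatives and kinases, *FOXO4* was called higher with si025 (0.64, adjusted *p* = 3.86e-06), whereas its si033 value was not called (0.17, adjusted *p* = 0.148). *GSK3B*, a kinase that AKT inhibits, rose from 144 CPM by 0.37 on the log2 scale with si025 (186 CPM, adjusted *p* = 1.37e-06) and by 0.43 with si033 (194 CPM, adjusted *p* = 1.72e-07). *SGK1*, a kinase related to AKT, was lower with si025 (-0.47, adjusted *p* = 0.0203) and was at 0.11 with si033 (adjusted *p* = 0.598).

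The 19 tested FOXO target genes showed no common direction, with 6 called higher and 5 lower with si025 and 7 higher and 8 lower with si033. The median log2 fold changes were 0.07 and -0.03. *ERBB3*, a receptor gene of the EGFR family, rose with si025 (0.66, adjusted *p* = 9.90e-09) and si033 (1.15, adjusted *p* = 7.05e-13), and *PINK1*, a mitochondrial quality control kinase, likewise (0.77 and 0.31, adjusted *p* = 2.02e-11 and 4.57e-05). The transcriptional repressor gene *BCL6* fell with both (-1.05 and -0.74, adjusted *p* = 4.21e-11 and 1.56e-08). *GADD45A*, a growth arrest gene, fell with si033 (-1.39, adjusted *p* = 1.45e-12) and was not called with si025 (-0.11, adjusted *p* = 0.177). *CDKN1A*, the gene of the cell cycle inhibitor p21, was chosen after its values were seen, and it was higher with si025 (0.75, adjusted *p* = 9.48e-11) and lower with si033 (-1.20, adjusted *p* = 9.57e-13). These targets were listed by hand from general knowledge, and other factors also act on them.

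**Figure D5:**
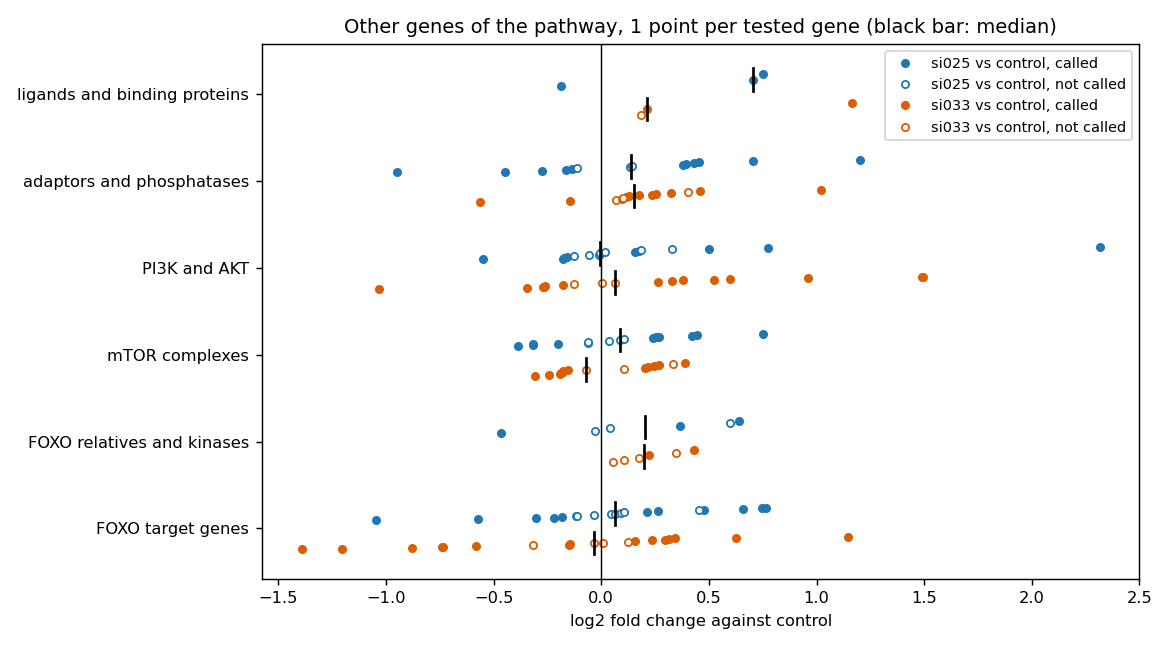
Log2 fold change against control of each tested gene in the 6 lists of other pathway genes, with si025 and si033. Each point is a gene, filled where called, and black bars are medians. The points of every list lie on both sides of 0 with at least 1 of the siRNAs, and the FOXO target genes range from -1.39 to 1.15 with si033.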

How the data were processed

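RNA was sequenced from 9 VCaP libraries. The authors aligned reads with HISAT2 2.1.0 to hg38 and made the deposited counts with featureCounts 1.5.2 (submitters' processing notes). Per the file headers, read pairs were counted over exons on the reverse strand, by gene symbol of a RefSeq annotation, whereas the methods of the study name GENCODE. The labels and the methods also name different RNA extraction kits. What the authors deposited are raw, unnormalised counts of read pairs per gene. Libraries were grouped by title.

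Counts were tested with edgeR 4.0.16 in R 4.3.3 (quasi-likelihood test, TMM normalization, default expression filter, 12810 genes, 3 group means, no covariate), with Benjamini-Hochberg adjustment over all genes tested. The biological coefficient of variation was 4.13%. FPKM is the TMM-normalised CPM per kilobase of exon length in the files. Ratios were tested by exact permutation of libraries. No 2 libraries agreed within counting noise. The numbers in the titles did not pair the libraries (correlation of deviations -0.02 to 0.07 over 9 same-numbered pairs). Library totals were 11649811 to 28492259 counts. The scripts were tested on simulated data.

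The members and lists were chosen with earlier results of these data known. Named pathway genes are, for each list and siRNA, the called gene with the highest log2 fold change above 0 and that with the lowest below 0, plus the 3 genes most like *IGF1R* (log2 of CPM plus 0.5). A gene that this rule names and some marker genes are not reported here. The 18 alternatives comprise RLE, upper quartile and library size scaling, no filter, a mean of at least 5 CPM, the DESeq2 1.42.0 Wald test, a replicate block, the 2 compared groups only, offsets for gene length and GC content, and leaving out each of 9 libraries. 3′ UTRs came from GENCODE version 44, and the siRNA sequences from the supplementary material of the study.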

Additional observations from a re-analysis of the deposited data

Results flagged for a closer look

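In the direct comparison of the 2 siRNAs by the edgeR quasi-likelihood test, 8 of the 10 members differed in their response to si025 and si033. In the same comparison, 60.9% of all 12810 tested genes were called, so a difference alone does not set a member apart. The log2 difference of si025 from si033 was -2.19 for *IGFBP5*, -0.89 for *IGFBP3*, -0.63 for *IRS1*, -0.61 for *FOXO3*, -0.36 for *IRS2*, -0.33 for *INSR* and -0.24 for *IGF1R*, and 0.68 for *FOXO1*. All 8 kept their direction and their call under each of the alternatives that gave a value. *IGFBP5*, *IGFBP3* and *IRS2* were called higher with both siRNAs and differed in size. *IRS1* and *IGF1R* were called with si033 only, and *INSR*, *FOXO3* and *FOXO1* with si025 only. What sets the siRNAs apart was not tested, and *IGF1R-AS1* was not analysed in these libraries.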

How the results depend on the processing

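Of 30 member results (10 genes in 3 comparisons), 25 kept their direction and their side of the threshold under each of the 18 alternatives that gave a value. *IGF1R* with si025 changed sign with offsets for gene length and GC content (-0.073) and, over the leave-one-out fits, ranged from -0.024 to 0.075. *IRS1* with si025, near 0 and never called, changed sign with upper quartile normalization (0.016) and library size only (0.046), and ranged from -0.079 to 0.068 over the leave-one-out fits. *IGF2R* with si025 lost its call with upper quartile normalization (-0.10), with library size only (-0.07) and without 4 of the libraries (range -0.14 to -0.08 over all 9). *FOXO3* with si033 gained a call with library size only (0.14) and without si033 replicate 1 (0.13), and the difference of *IGF2R* between the siRNAs gained one without si025 replicate 2 (0.13). The number of members called ranged from 7 to 9 with si025, 7 to 8 with si033 and 7 to 9 between the siRNAs. With a replicate block, these numbers were 8, 7 and 8, the *IGF1R* values 0.03, 0.28 and -0.24, and no member's call changed. As the numbers do not pair the libraries, the block is no stricter test. With library size only, 59.3% of the genes called with si033 were higher, against 49.2% as reported. *FOXO1* had no value at a mean of at least 5 CPM, which its level did not reach. *FOXO1* and *IGFBP5*, counted fewer than 100 times in most libraries, have the largest SEs of the 10 members.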
